A study of Sus scrofa with 36 samples.

Results

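In the liver of 36 castrated male pigs, 8 genes of glucocorticoid action, of 10395 named genes with a kept probe, were followed with 35 array probes. Members were the probes whose gene name, transcript record or description in the scanner tables pointed to KLF9, DUSP1, FKBP5, TSC22D3, SGK1, NR3C1, HSD11B1 or SERPINA6 and whose spots were well above background on at least 6 of the 36 arrays. All 35 probes passed that filter, among 44796 kept of 60305 on the array. There were 11 probes for KLF9, 7 for HSD11B1, 5 each for FKBP5 and NR3C1, 2 each for DUSP1, SGK1 and TSC22D3, and 1 for SERPINA6. Both TSC22D3 probes and 1 of the NR3C1 probes were matched by their description.

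The pigs were Large White (LW), Creole (CR) or the cross of these called F1 in the labels, with 12 animals per breed. In each breed 6 animals were killed at thermoneutrality (TN), labelled 24 °C, and 6 under heat stress (HS), labelled 30 °C although the growth protocol gives a higher temperature. By the methods of the study, slaughter of the HS pigs followed that of the TN pigs, and an effect of temperature, of the day of slaughter and of a few days of age cannot be told apart. Littermates and pen mates were present but are not marked in the labels, so p-values treat the animals as independent. Arrays lay on 5 slides, each with as many TN as HS samples, but breeds were not balanced over temperature within slides. Slide 1 held 2 LW TN, 1 CR HS and 1 F1 HS sample, so LW and TN cannot be told apart there. Differences given for single slides are plain differences of means, not adjusted for breed or temperature. On the first principal component of all kept probes, 2 LW TN arrays (-4.83 and -3.04) lay apart from the other 10 LW arrays (-44.2 to -24.8), and 3 F1 arrays (-21.3 to -17.0) from the other 9 (-1.31 to 36.9). The 5 hepatocyte markers kept had a summed log2 level of 20.3 to 20.5 in TN and 20.4 to 20.5 in HS animals.

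Glucocorticoids are steroid hormones of the adrenal cortex. In blood they travel bound to a globulin that the liver secretes, and in the hepatocyte an enzyme regenerates the active hormone from its inert keto form. The hormone binds a receptor held by chaperones in the cytosol, which then enters the nucleus and changes the transcription of target genes, several of which restrain the signal or steer the metabolism of glucose and lipids. In the order used here, KLF9, TSC22D3, FKBP5, DUSP1 and SGK1 are targets, NR3C1 is the receptor, HSD11B1 is the regenerating enzyme and SERPINA6 is the binding globulin.

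Probes are 60 bases long and a level can be compared between animals for 1 probe, never between probes. Between breeds this holds only where a probe matches the sequence of each breed equally well, which was not checked. Probes from coding sequence are printed because they show which stretch of the message each value reports on. Their number is the first base of the probe in the transcript record of the array design, and capitals mark the bases that a pair of HSD11B1 probes have in common.
KLF9 start 261: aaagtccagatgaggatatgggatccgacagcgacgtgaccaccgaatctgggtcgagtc
KLF9 start 453: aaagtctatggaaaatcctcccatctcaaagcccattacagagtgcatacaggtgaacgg
FKBP5 start 979: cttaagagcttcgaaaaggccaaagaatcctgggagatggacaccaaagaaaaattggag
NR3C1 start 2007: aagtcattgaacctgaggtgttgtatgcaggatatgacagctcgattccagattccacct
HSD11B1 start 769: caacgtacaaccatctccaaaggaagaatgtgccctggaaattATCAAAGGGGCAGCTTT
HSD11B1 start 812: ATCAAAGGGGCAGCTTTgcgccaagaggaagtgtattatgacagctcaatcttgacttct
HSD11B1 start 105: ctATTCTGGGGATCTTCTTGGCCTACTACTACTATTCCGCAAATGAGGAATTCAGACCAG
HSD11B1 O9336: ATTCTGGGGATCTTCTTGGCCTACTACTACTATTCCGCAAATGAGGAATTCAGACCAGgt
The probes at 769 and 812 share 17 bases and those at 105 and O9336 share 58, so that neither pair gives independent readings. The same holds for the KLF9 probes starting at 4201, 4225, 4256 and 4284, which overlap.

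With breed accounted for, 11 of the 35 probes (31.4%) were differentially expressed between HS and TN at an FDR adjusted p under 0.05, and all 11 were lower in HS. Over all kept probes the share was 0.857% in either direction and 0.422% for lower signal. The 11 were 10 of the 11 KLF9 probes and 1 of the 2 TSC22D3 probes. They stand for 2 genes, since probes of a gene share its RNA: among animals, after group means were taken out, the KLF9 probes correlated with each other at r = 0.47 to 0.97 (median 0.86, 55 pairs, 36 animals). The median difference of the 35 probes was -0.25 on the log2 scale, and that of all kept probes was 0.00. In bulk tissue, fewer cells of a type and less RNA per cell cannot be told apart.

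KLF9 is a zinc finger transcription factor of the Krüppel-like family that the glucocorticoid receptor induces in many tissues. The gene lies on chromosome 1, from 223723613 to 223747661 in Sscrofa11.1. Its brightest probe (start 4225) read a log2 signal of 12.57 ± 0.31 in the 18 TN livers and 11.94 ± 0.37 in the 18 HS livers (mean ± SD). HS signal was 1.54-fold lower, a log2 difference of -0.63 (SE 0.11, limma adjusted p = 0.0046).
The lowest, median and highest values were 12.16, 12.52 and 12.71 in LW TN pigs and 11.62, 12.09 and 12.87 in LW HS pigs. They were 12.10, 12.52 and 13.05 in CR TN and 11.42, 11.80 and 12.08 in CR HS pigs. In F1 they were 12.44, 12.58 and 13.20 in TN and 11.49, 11.89 and 12.29 in HS pigs. On this probe the TN and HS ranges did not overlap in CR or in F1, whereas in LW 1 HS pig was above all 6 TN pigs. Of the 18 HS animals, 17 were below the TN mean of their breed and 15 were below its lowest TN animal. The difference was below 0 on each of the 5 slides, from -0.94 to -0.46. Not every KLF9 probe kept the ranges apart. They overlapped in both CR and F1 at starts 3572, 2928 and 170. At starts 3148 and 261 they overlapped in F1, and at start 453 in CR. The share of all kept probes with separate ranges was not computed.

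The size of the KLF9 difference varied among the probes. The 8 brightest probes gave -0.67 to -0.61, the 2 printed coding probes gave -0.48 (start 261, SE 0.09, limma adjusted p = 0.0072, but 0.061 without slide 2) and -0.38 (start 453, SE 0.06, limma adjusted p = 0.0037), and the dimmest probe, at start 170, gave -0.25 (SE 0.07, limma adjusted p = 0.070). That last probe alone of the 11 was not differentially expressed. It passed in 3 other processings, with slide as a block (-0.25, adjusted p = 0.036), with the processed signal (-0.59, adjusted p = 0.048) and in the authors' table (-0.26, adjusted p = 0.039), and also without LW HS replicate 3 or F1 TN replicate 5 (-0.27 each, adjusted p = 0.048 each). It was well above background on 34 of 36 arrays. At start 453 the lowest, median and highest log2 signals were 6.44, 6.73 and 7.17 in the 18 TN pigs and 6.12, 6.34 and 6.76 in the 18 HS pigs, with 17 HS pigs below the TN mean of their breed. The 3 probes with the smallest differences were also the 3 dimmest (mean log2 signal 5.73 to 6.89, against 9.12 to 12.25 for the others). Their differences moved with the processing: with the scanner's background-subtracted processed signal, scaled to the 75th percentile of each array, they were -0.64 (start 261), -0.57 (start 453) and -0.59 (start 170), beside -0.72 to -0.65 for the 8 brightest, and with normexp background correction they were -0.37, -0.29 and -0.16. The smaller size at these 3 probes thus held with the unsubtracted median signal and with normexp, which was run with an offset of 50. With the processed signal it was much reduced.

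**Figure D1:**
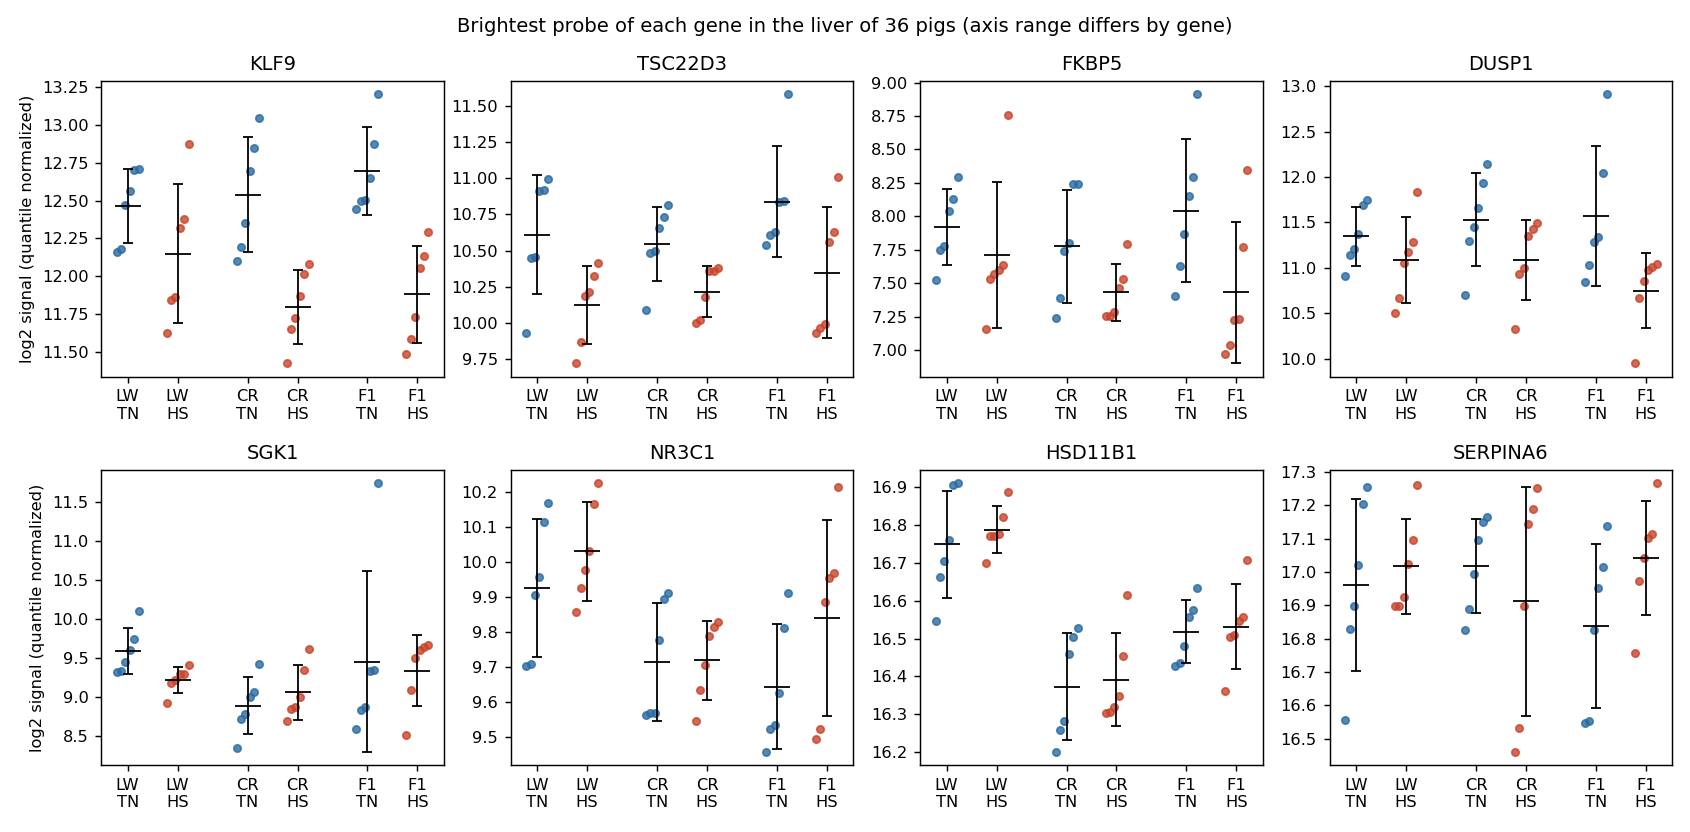
Log2 quantile normalized signal of the brightest probe of each gene (vertical axis, range differs by gene) in the 6 groups of 6 pigs (horizontal axis, breed and temperature). Points are animals, blue for TN and red for HS, and black bars are the mean and SD. On the KLF9 probe shown, all 6 HS animals lie below all 6 TN animals in CR and in F1, and HSD11B1 is higher in LW than in CR.

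TSC22D3 encodes the glucocorticoid-induced leucine zipper, a protein that restrains inflammatory transcription factors, on chromosome X from 88171325 to 88233583. Its brighter probe (start 1671) read 10.67 ± 0.36 in the 18 TN livers and 10.23 ± 0.32 in the 18 HS livers (mean ± SD). HS signal was 1.35-fold lower (log2 difference -0.44, SE 0.11, limma adjusted p = 0.039). The lowest, median and highest values were 9.93, 10.64 and 11.58 over TN and 9.72, 10.20 and 11.01 over HS pigs. The ranges overlapped in every breed, although 17 of 18 HS pigs were below the TN mean of their breed.
The dimmer TSC22D3 probe (start 320, well above background on 18 arrays) gave -0.23 (SE 0.07, limma adjusted p = 0.12), with -0.71 from the processed signal and -0.13 with normexp, neither of which passed. The call on the brighter probe was close to the threshold. It was lost without any of 13 single arrays (LW TN 2 and 5, LW HS 2 and 6, CR TN 4, 5 and 6, CR HS 5, F1 TN 1 and 3, F1 HS 2, 5 and 6), with adjusted p = 0.050 to 0.068 and a difference of -0.44 to -0.39, without the 5 arrays apart (-0.36, adjusted p = 0.092) and without slide 1, 2, 4 or 5 (-0.51 to -0.36, adjusted p = 0.077 to 0.23).

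FKBP5 and DUSP1 were lower in HS on every probe, but none of their 7 probes passed the threshold. FKBP5 is a co-chaperone that lowers the receptor's affinity for the hormone and is induced by it. Its 5 probes gave -0.39 to -0.24 (limma adjusted p = 0.093 to 0.25), and -0.57 to -0.45 from the processed signal, where none passed either. For the brightest, the lowest, median and highest values were 7.24, 7.83 and 8.91 in TN and 6.97, 7.50 and 8.76 in HS pigs, with overlap in every breed. The printed coding probe gave -0.38 (SE 0.11, limma adjusted p = 0.093). Without LW HS replicate 5, whose FKBP5 signal was the highest of its group, it passed (-0.43, adjusted p = 0.037).
DUSP1 is a phosphatase that switches off stress-activated kinases. Its probes gave -0.51 (SE 0.16) and -0.54 (SE 0.16) with limma adjusted p of 0.12 and 0.099. On the brighter, values ran from 10.70 through a median of 11.35 to 12.91 in TN and from 9.95 through 10.997 to 11.84 in HS pigs, and 17 of 18 HS pigs were below the TN mean of their breed. The slides differed widely, from -1.13 to -0.04. The other probe passed without CR TN replicate 1 (-0.61, adjusted p = 0.045).
SGK1, a kinase that acts on ion transport, gave -0.11 (SE 0.18) on its brighter probe, with a 95% interval of -0.47 to 0.25. F1 TN replicate 3 read 11.75, against 9.35 for the next animal of its group, and without it the sign turned (0.037).

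NR3C1, the glucocorticoid receptor (chromosome 2, 144822937 to 144956451), had an HS minus TN difference above 0 on all 5 probes, from 0.02 to 0.23. The printed coding probe (start 2007) had the largest difference, 0.23 (SE 0.06, limma adjusted p = 0.062). Its lowest, median and highest signals were 8.09, 8.46 and 8.87 in TN and 8.46, 8.66 and 8.96 in HS pigs. The ranges overlapped, and 17 of 18 HS pigs were above the TN mean of their breed. It passed the threshold in 3 of 7 other processings, without F1 HS replicate 1 (0.24, adjusted p = 0.047), without F1 TN replicate 1 (0.25, adjusted p = 0.037) and without the 5 arrays apart (0.27, adjusted p = 0.026). The NR3C1 probes did not track one another: the median r of the 10 pairs over 36 animals was 0.09, from -0.17 to 0.82.
HSD11B1, the enzyme that regenerates cortisol from cortisone (chromosome 9, 133231451 to 133278396), differed by 0.01 to 0.12 on its 7 probes, and the 95% intervals ran from -0.06 to 0.11 for the brightest to -0.25 to 0.39 for the probe at start 1127, with -0.05 to 0.29 for O9336. SERPINA6, the corticosteroid-binding globulin, differed by 0.05 with an interval of -0.10 to 0.20. Each interval bounds the estimate of its probe, and differences within it remain possible. It does not give the smallest difference that could be detected.

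**Figure D2:**
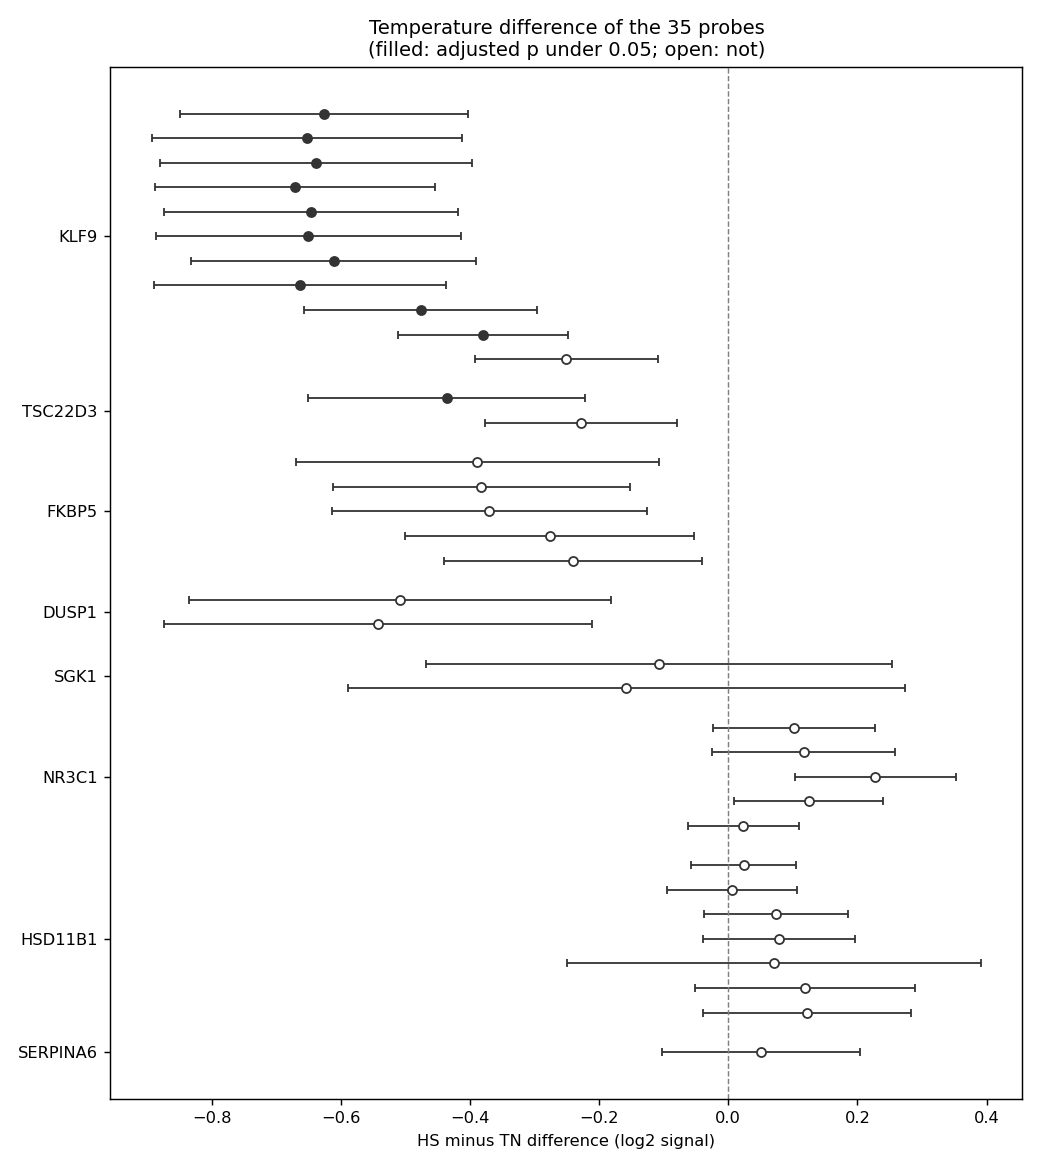
HS minus TN difference in log2 signal (horizontal axis) of the 35 probes grouped by gene and ordered from bright to dim within a gene. Points are limma estimates with breed in the model, bars are 95% intervals, and filled points have an adjusted p under 0.05. The 10 filled KLF9 points and the 1 filled TSC22D3 point lie left of 0, and all NR3C1, HSD11B1 and SERPINA6 points lie right of it.

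Within a single breed none of the 35 probes was differentially expressed between HS and TN, where 0% of all kept probes passed in LW, 0% in CR and 0.00893% in F1 (0.00446% lower and as many higher). At an unadjusted p under 0.05 the member probes numbered 6 for LW, 10 for CR and 19 for F1 pigs, which is 17.1%, 28.6% and 54.3% of the members beside 5.11%, 7.40% and 9.30% of all kept probes. The 6 in LW were 3 KLF9, 1 TSC22D3, 1 HSD11B1 and 1 NR3C1 probes, 4 lower and 2 higher in HS. The 10 in CR were all KLF9, and in F1 they were 11 KLF9, 4 FKBP5, 2 DUSP1, 1 TSC22D3 and 1 NR3C1 probes. Probes of a gene are not independent, so these shares do not count genes. The brightest KLF9 probe differed by -0.31 in the LW pigs, -0.75 in the CR pigs and -0.82 in the F1 pigs (SE 0.18 each). The breed by temperature interaction passed for none of the 35 probes and for 0% of all kept probes, with 1 member probe, KLF9 O14257, at an unadjusted p under 0.05. The smaller LW value was therefore not shown to differ from the others (limma F test, adjusted p = 0.99). For DUSP1 the LW, CR and F1 differences were -0.26, -0.44 and -0.83 (SE 0.28 each), and for FKBP5 -0.21, -0.34 and -0.61 (SE 0.24 each), and these too were not shown to differ between breeds (limma F test, adjusted p = 0.99 for both).

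Between CR and LW, 9 of the 35 probes were differentially expressed, against 26.5% of all kept probes (12.9% lower and 13.6% higher), so that the share of members (25.7%) was near the background. All 9 were lower in CR: 6 of 7 HSD11B1 probes, 2 of 5 NR3C1 probes and 1 of 11 KLF9 probes. Between F1 and LW there were 7 of 35 against 18.3% (9.22% lower and 9.13% higher), the same 6 HSD11B1 probes and 1 NR3C1 probe, all lower in F1. Between F1 and CR there were none against 1.5% (0.743% lower and 0.761% higher), with 5 probes at an unadjusted p under 0.05 (3 HSD11B1 and 2 FKBP5), 14.3% of the members beside 12.5% of all kept probes.
The brightest HSD11B1 probe (start 1285) read 16.55, 16.77 and 16.91 (lowest, median, highest of 12) in LW, 16.20, 16.34 and 16.61 in CR and 16.36, 16.53 and 16.71 in F1. F1 lay between the other breeds, 11 of 12 CR pigs were below the lowest LW pig and 7 of 12 F1 pigs were. CR was 1.31-fold lower than LW (log2 -0.39, SE 0.05, limma adjusted p = 9.7e-07), and F1 was 1.18-fold lower (-0.24, SE 0.05, limma adjusted p = 0.0014).
The probe near the start of the transcript (start 105, printed above) gave the largest CR difference. It read 12.15, 12.70 and 13.10 in LW, 11.63, 11.80 and 12.17 in CR and 11.62, 12.09 and 12.82 in F1. CR was 1.73-fold lower than LW (log2 -0.79, SE 0.10, limma adjusted p = 6.2e-07), with 11 of 12 CR pigs below the lowest LW pig and a difference of -0.89 to -0.65 within the 5 slides. The remaining probe, at start 1127, did not pass (0.11, SE 0.19, limma adjusted p = 0.72), so the probes of this gene disagree.
For NR3C1 the brightest probe (start 3187) read 9.70, 9.97 and 10.22 in LW, 9.55, 9.74 and 9.91 in CR and 9.46, 9.72 and 10.21 in F1. CR was lower by -0.26 on the log2 scale (SE 0.08, limma adjusted p = 0.0095) and F1 by -0.24 (SE 0.08, limma adjusted p = 0.027), and the latter did not pass without F1 HS replicate 3, F1 HS replicate 4 or LW TN replicate 4 (-0.21 each, adjusted p = 0.052 to 0.058), nor without slide 2 (-0.22, adjusted p = 0.070), slide 3 (-0.13, adjusted p = 0.37) or slide 4 (-0.22, adjusted p = 0.11). Within slides the CR difference ran from -0.46 to 0.02, and it did not pass without slide 3 (-0.21, adjusted p = 0.11) or slide 4 (-0.24, adjusted p = 0.056). The other NR3C1 probe called in CR (O9499, -0.27, limma adjusted p = 0.019) did not pass without slide 2, 3 or 4 (-0.28 to -0.21, adjusted p = 0.066 to 0.14). The printed coding probe differed by 0.04 (CR) and 0.10 (F1), with neither passing. The NR3C1 probe at start 605 was not called either, and was higher in CR than in LW within each of the 5 slides (0.06 to 0.19). A lower level of receptor RNA was thus not seen along the whole message. With the mean of its 5 probes, NR3C1 differed by -0.06 in CR (limma adjusted p = 0.37) and -0.03 in F1 (limma adjusted p = 0.69). The KLF9 probe called (O14257, -0.39, limma adjusted p = 0.040) was lost without any of 11 single arrays (LW TN 2, 4 and 5, LW HS 2, 3 and 5, CR TN 6, CR HS 1, 2, 4 and 6), with adjusted p = 0.051 to 0.086, with slide as a block (-0.36, adjusted p = 0.052), without a filter on dim probes (adjusted p = 0.051) and without slide 1, 2, 3 or 5 (adjusted p = 0.050 to 0.19), and the other 10 KLF9 probes were between -0.16 and 0.15.
Some markers of other liver cells moved with breed as well. Lower in CR than in LW were 4 of 5 macrophage, 3 of 6 lymphocyte and 3 of 4 endothelial markers (lower in F1: 4, 2 and 2). Over all kept probes 12.9% were lower in CR and 9.22% in F1. In the other lists 1 of 5 hepatocyte and 1 of 5 stellate markers were lower in CR. Of 4 cholangiocyte markers 1 was higher in CR, and no erythroid marker passed. Summed macrophage log2 signal was 14.9 to 15.8 in LW, 14.1 to 14.8 in CR and 14.2 to 15.4 in F1. The part of these cell types in the HSD11B1 and NR3C1 differences was not tested. No marker list held a called gene between HS and TN.

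**Figure D3:**
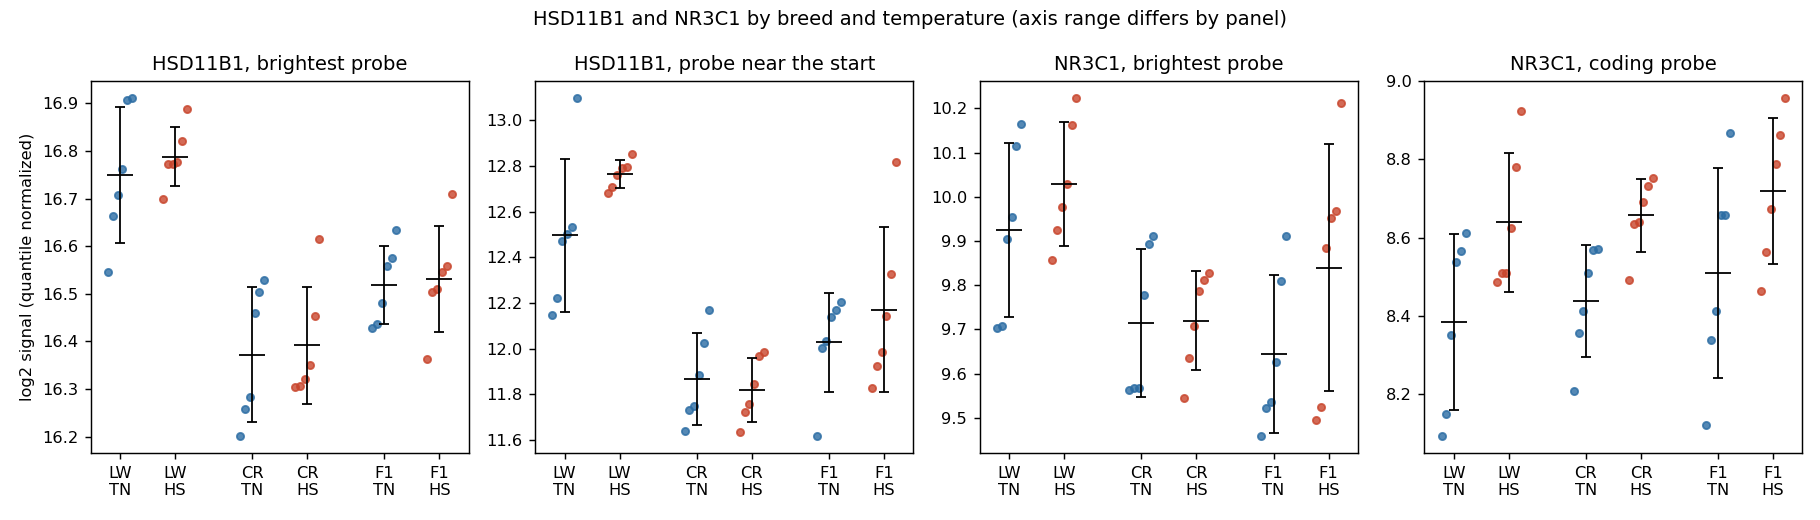
Log2 quantile normalized signal (vertical axis, range differs by panel) of 2 HSD11B1 and 2 NR3C1 probes in the 6 groups (horizontal axis). Points are animals, blue for TN and red for HS, and bars are mean and SD. Both HSD11B1 probes are lower in CR than in LW at either temperature, while the NR3C1 probes differ from each other.

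Of 70 further genes of the pathway, 59 had a kept probe. Between HS and TN, 1 of these was differentially expressed: ABCB1, a membrane pump that exports glucocorticoids and drugs (log2 -0.59, SE 0.13, limma adjusted p = 0.023), which did not pass without slide 3, 4 or 5 (-0.60 to -0.44, adjusted p = 0.084 to 0.22). None of 18 receptor machinery genes (chaperones and coregulators) and none of 36 other target genes passed. Of the target genes 31 were below 0, with a median of -0.10 against 0.00 for all probes. In CR against LW 17 of 59 passed (28.8%), near the background of 26.5%. The largest were CDKN1A, a cell cycle inhibitor (-0.84), RGS2, a regulator of G protein signalling (-0.73), and HSD3B7, an enzyme of bile acid synthesis (-0.53), all lower, and DUSP6 (0.82), LPIN1, a phosphatase of lipid synthesis (0.81), and FKBP4, a receptor co-chaperone (0.41), all higher. In F1 against LW 13 of 59 passed (22%, near the background of 18.3%), led by LPIN1 (1.12), the clock gene PER1 (0.69) and FOXO3 (0.50), all higher, and RGS2 (-0.70), ANXA1 (-0.58) and HSD3B7 (-0.46), all lower. In F1 against CR none of the 59 passed. The LPIN1 value in CR and the PER1 value did not pass without any of 9 single arrays (for LPIN1 LW TN 4 and 5, LW HS 1, 3 and 4, CR TN 4, CR HS 3, 4 and 5; for PER1 LW TN 3 and 4, LW HS 4, F1 TN 1, 3 and 6, F1 HS 3, 4 and 6) (adjusted p = 0.058 to 0.084 and 0.051 to 0.070). LPIN1 in CR also did not pass with slide as a block (0.79, adjusted p = 0.061), with the processed signal (adjusted p = 0.052), without a filter on dim probes (adjusted p = 0.051) or without slide 3 or 4 (0.54 and 0.63), nor PER1 with the processed signal (0.63, adjusted p = 0.053), in the authors' table (0.56, adjusted p = 0.060) or without slide 2, 3 or 4 (adjusted p = 0.082 to 0.21). Calls were lost for LPIN1 in F1 without slide 2 or 4 (adjusted p = 0.066 and 0.083), for ANXA1 and HSD3B7 in F1 without slide 3 (adjusted p = 0.081 and 0.082), and for DUSP6 in CR without slide 3 or 5 (adjusted p = 0.082 and 0.14). ANXA1 in F1 was -0.93 without the 5 arrays apart.

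**Figure D4:**
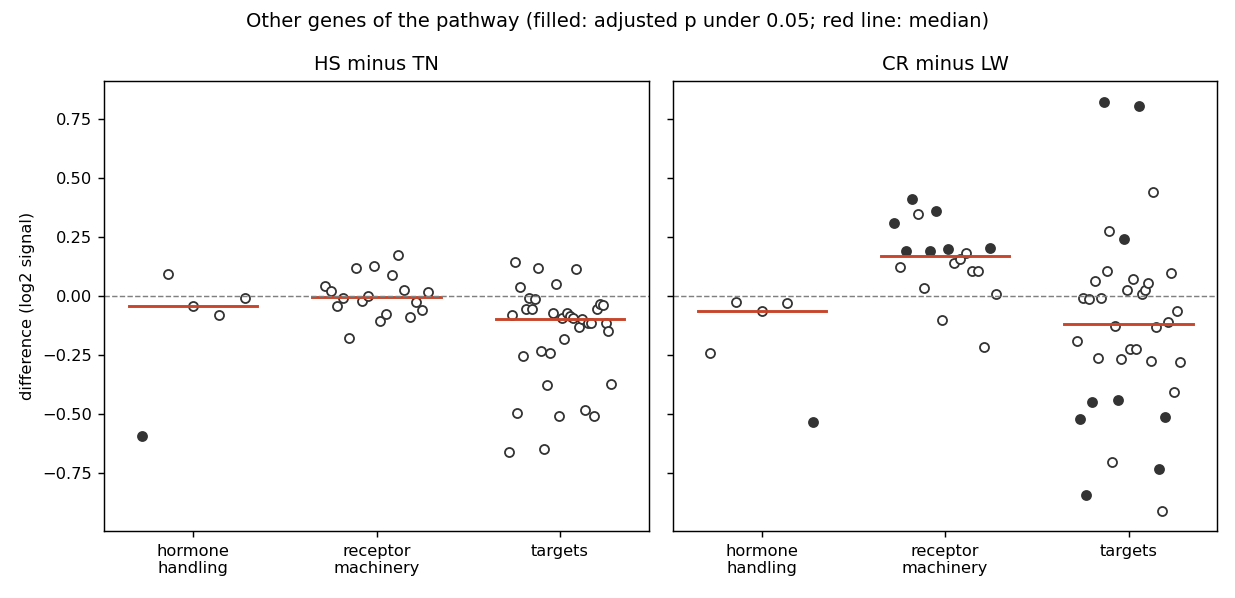
Difference in log2 signal (vertical axis) of the 59 other pathway genes, 1 probe each, in 3 lists (horizontal axis), for HS minus TN (left) and CR minus LW (right). Filled points have an adjusted p under 0.05 and red lines are medians. In HS minus TN the only filled point is ABCB1 at -0.59. In CR minus LW 7 of 18 receptor machinery genes (38.9%) are filled, all above 0. Filled there too are 9 of 36 targets (25%) and 1 of 5 hormone handling genes (20%). Over all kept probes 26.5% passed in CR minus LW, 13.6% of them higher and 12.9% lower as shares of all probes.

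In the main test no pair of members was shown to vary together among animals of a group. Of the 28 pairs of members, with group means taken out of the 36 animals and permutations within groups, none passed adjustment and 5 had an unadjusted permutation p under 0.05. For KLF9 and DUSP1, r = 0.48 and rho = 0.43 (permutation p = 0.0060 and 0.015, adjusted 0.17 and 0.37), and r fell to 0.38 without the 2 animals farthest from the KLF9 median. For KLF9 and FKBP5, r = 0.44 and rho = 0.39 (permutation p = 0.022 and 0.031, adjusted 0.19 and 0.37), with 0.26 without those 2 animals. The other 3 pairs were TSC22D3 with SGK1 (r = 0.45, rho = 0.29), with NR3C1 (-0.44, -0.37) and with FKBP5 (0.41, 0.30), each with a permutation p of 0.028 to 0.033 for r (adjusted 0.19) and of 0.054 to 0.11 for rho (adjusted 0.37 to 0.43), and r without the 2 farthest animals of 0.22, -0.38 and 0.40. With slide means also taken out, KLF9 and FKBP5 gave r = 0.66 and passed (permutation test, adjusted p = 0.0056), FKBP5 and TSC22D3 fell to 0.20, and KLF9 and DUSP1 gave 0.42, TSC22D3 and SGK1 0.47 and TSC22D3 and NR3C1 -0.45, none of which passed.
Over 10394 other named genes, those whose residuals were most like KLF9 were SCAMP1 (r = 0.67), SMC1A (0.65), KIF21A (0.64), OCLN (0.61) and UBE2J2 (0.60), over 36 animals. For FKBP5 they were ZBTB16 (0.71), CD1E (0.70), EXOC8 (0.68), SPACA4 (0.67) and GOLGA1 (0.66), of which ZBTB16 was also on the target list. For TSC22D3 they were DUOXA2 (0.77), KIAA1755 (0.74), EEPD1 (0.72), NFIC (0.70) and ZRANB1 (0.69). These are the highest of many correlations and are given as a description with no test.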

How the data were processed

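Liver RNA of 36 pigs was hybridised to 1-colour Agilent arrays. The authors deposited 1 scanner table per array (Agilent Feature Extraction 10.10.1.1), whose spot signals are linear intensity values not normalized between arrays, and a table of log2 values for 42051 probes, normalized by the authors and used only as an alternative. No count depth exists, so precision is limited by the number of arrays. Median signals were 70.0 to 92.0 per array over backgrounds of 18.0 to 25.0, and 39644 to 44025 spots were well above background.

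From the scanner tables, log2 median signal was quantile normalized over 60306 spots, 107 non-uniform spots were set missing, and probes well above background on at least 6 arrays were kept. Groups came from the labels. limma 3.58.1 in R 4.3.3 (lmFit, eBayes) fitted breed plus temperature, and a means model of 6 groups for within-breed effects and the interaction, with Benjamini-Hochberg adjustment over 44796 probes and a threshold of 0.05. On simulated data 89.5% of 200 randomly chosen probes changed by 0.5 log2 units were recovered for HS minus TN. The simulated noise was independent between animals and probes, with no slide, litter or pen effects. The share was not computed for the member probes and does not tell how often a change in them would be found. The brightest kept probe stood for a gene. Named pathway genes were those passing in HS minus TN, and the 3 largest each way per breed contrast. Slide, signal, filter, weights and left-out arrays were tried as alternatives. A further one, leaving out 5 arrays named in an earlier analysis, was chosen after seeing the data. Members and lists were chosen with earlier results of these data known. Gene positions are those of RefSeq on Sscrofa11.1; probe positions in the genome and promoters were not analysed here.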

Additional observations from a re-analysis of the deposited data

Results flagged for a closer look

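In 48 checks of the brightest probe of each gene in each group of 6 animals, 4 single animals lay far from the other 5 of their group, against 2.4 that chance alone would give. The value is the gap to the nearest animal as a share of the group's range. DUSP1 in F1 HS replicate 3 was low (9.95 against 10.67, 0.658). FKBP5 in LW HS replicate 5 was high (8.76 against 7.64, 0.701). SGK1 in F1 TN replicate 3 was high (11.75 against 9.35, 0.759), as was TSC22D3 in the same animal (11.58 against 10.84, 0.708).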

How the results depend on the processing

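The number of member probes differentially expressed between HS and TN was 11 to 13 under 7 other settings of signal, background, filter, slide and weights, 10 to 12 with each array left out in turn, 9 to 11 with each slide left out and 11 without the 5 arrays apart. The brightest KLF9 probe stayed between -0.68 and -0.53 and passed in all of these. The count over all probes moved more, from 384 to between 202 and 532 without single arrays and to between 70 and 148 without a slide. Between CR and LW the member count was 8 to 9, 8 to 10, 6 to 8 and 10 in the same order. Between F1 and LW it was 7 to 9, 6 to 8, 6 to 8 and 11. Over all probes the CR minus LW count was 11092 to 14014, 10590 to 12686, 5686 to 11298 and 14778, beside 11855 in the main fit. The F1 minus LW count over all probes was 7312 to 11619, 6278 to 9860, 1584 to 9094 and 14488, beside 8220. Without the 5 arrays the counts of members and of all probes thus both rose. Those 5 arrays were left out for lying off their breed, and such a choice favours larger breed differences. Why these arrays lay apart was not tested. With 1 value per gene, the mean of its probes, 1 member gene passed in place of 2 in both of these comparisons. HSD11B1 passed and NR3C1 was lost. Within breeds, leaving out arrays in turn gave 0 to 1 member probes in CR (1 without F1 HS replicate 4 or F1 TN replicate 3) and 0 to 2 in F1 (2 without F1 TN replicate 5). Over all kept probes the calls in these fits ran from 0 to 113 in CR and from 1 to 55 in F1. Among member pairs, 1 in place of 0 passed with slide means taken out.

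Signs were followed for all member probes in HS minus TN, and otherwise only for called member probes and named pathway genes. Breed differences that did not pass were thus not followed. Among those followed, signs turned only for HS minus TN differences that did not pass, from -0.16 (SGK1 O10149) to 0.12 (HSD11B1 O9336). For HSD11B1 start 812 the differences became -0.0035 in the authors' table, -0.0018, -0.017 and -0.014 without slides 1, 2 and 3 and -0.029 without the 5 arrays apart, and ran from -0.0082 to 0.024 with each array left out in turn, below 0 for 9 of the 36. Without the 5 arrays apart they became -0.0039 for HSD11B1 start 1285, -0.0066 for HSD11B1 O9336, -0.0088 for SERPINA6 and 0.030 for SGK1 start 2332. Without slide 4 they became 0.020 and 0.039 for the SGK1 probes and -0.0081 for NR3C1 start 371, and without slide 1 -0.039 for HSD11B1 start 1127. Without those 5 arrays, some HS minus TN differences that did not pass shrank while keeping their sign: FKBP5 start 614 to -0.15 and O10720 to -0.24, HSD11B1 starts 769, 625 and 105 to 0.021, 0.018 and 0.0086, NR3C1 start 3187 to 0.014 and O9499 to 0.043, and SGK1 O10149 to -0.025, while NR3C1 start 371 rose to 0.057. The brighter SGK1 probe ran from -0.16 to 0.037 with each array left out in turn, above 0 only without F1 TN replicate 3.

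No paired analysis was possible because replicate numbers only name animals and pair nothing across groups. The dimmer TSC22D3 probe was well above background on 18 of 36 arrays and the KLF9 probe at start 170 on 34, which limits what these 2 can show.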
